A study of Rattus norvegicus with 6 samples.

Results

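The genes described here encode the proteasome, the protease complex that degrades ubiquitin-tagged proteins. They were chosen by symbol: every known-gene row of the count table named Psma, Psmb, Psmc or Psmd followed by a number, which gave 39 members of 24360 gene rows, 14622 of them known genes. RNA was sequenced from H9c2 cells, a line derived from embryonic rat heart, all labelled wild type, in 3 Ctrl and 3 Rb2 samples. The Rb2 cells were given ginsenoside Rb2, a triterpene glycoside of ginseng, for 48 h, followed by 4 to 6 h without glucose and oxygen and 12 h of return to both. That protocol text stands unchanged on every sample, the Ctrl treatment is labelled only NC, and whether Ctrl cells also went through deprivation is not given in the sources used here. No dose is given and all samples are of 1 cell line. Whether they were grown as separate cultures is not stated, and the spread behind each p-value may then be technical only. The labels call the cells cardiomyocytes. Of the cardiac markers, Tnnt2 was at 52.9 CPM (counts scaled by library size and the TMM factor, a correction for the make-up of each library) in Ctrl and 45.3 in Rb2, Gata4 at 6.48 and 6.93, Nkx2-5 at 2.38 and 4.66 and Myh6 at 1.09 and 1.55, whereas Myh7, Tnni3, Actn2 and Myl7 had at most 2 counts in any library. Of the skeletal muscle markers, Myod1 was at 12.4 and 15.8 CPM, Des at 12.2 and 13.1, Myog at 9.72 and 10.2, Acta1 at 4.28 and 2.74, Chrna1 at 1.14 and 0.593, Tnnt1 at 0.479 and 0.716 and Myh3 at 0.361 and 0.420. Of the epithelial markers, Krt8 was at 36.8 and 36.1 CPM, and Epcam, Cdh1 and Krt18 had 0 counts. The leukocyte markers Cd68, Lyz2 and Csf1r had at most 6 counts in any library, and Ptprc had 0. Nkx2-5 varied widely within both groups, at 5.70, 1.08 and 0.349 CPM in Ctrl and 0.890, 5.37 and 7.73 in Rb2. The endothelial markers Pecam1, Cdh5, Kdr and Tie1 matched no row by symbol, nor did Ryr2 and Myf5. None of the markers that could be tested was called.

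The 20S core of the proteasome is a barrel of 4 stacked rings. Each outer ring holds 7 alpha subunits, encoded by Psma genes, which gate the entrance, and each inner ring holds 7 beta subunits, encoded by Psmb genes, of which Psmb5, Psmb6 and Psmb7 carry the protease sites. The 19S cap recognises ubiquitinated proteins, unfolds them with 6 ATPases (Psmc genes) and removes the ubiquitin with the help of the lid and base subunits (Psmd genes). Cells short of proteasome activity are known to raise the genes of the complex together through the transcription factor Nfe2l1. Heart muscle relies on the complex to remove oxidised and damaged proteins after loss of oxygen.

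Total counts were 8793390, 5881914 and 5787587 in Ctrl 1 to 3 and 5521376, 5570308 and 5193077 in Rb2 1 to 3, so that 3 counts corresponded to 0.364 to 0.552 CPM. Ctrl 1 was the deepest library and stood apart from the others: on the first principal component of all genes tested (42.3% of the variance) it lay at -47.0, the other 2 Ctrl samples at -18.1 and 0.560, and the Rb2 samples between 18.1 and 23.8. The mean length of the gene a count fell on was 1693, 1695 and 1747 bases in Ctrl and 1761 to 1767 in Rb2. Results are therefore also given without Ctrl 1 and with a correction for gene length.

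In Rb2, 3 proteasome genes were higher and none was lower. They were the alpha-ring gene Psma4, the ATPase gene Psmc6 and the base scaffold gene Psmd1. Of the 39 members 38 passed the filter on low counts, Psma8, a testis-specific alpha subunit, being the exception at no more than 0.368 CPM in any library. At an adjusted p under 0.05 (edgeR's quasi-likelihood test with Benjamini-Hochberg adjustment over all 11551 genes tested), the 3 higher calls among 38 stand beside 1.90% of all genes called higher, and the 0 lower calls beside 0.805% called lower, 2.70% in either direction. The median log2 fold change of the 38 members was 0.01, against -0.02 over all genes tested, with 19 members above 0 and 19 below. All members are known genes, and over the 8426 known genes tested the median was 0.04, with 207 called higher and 44 lower. Over the 2036 known genes with at least 50 CPM it was -0.04, with 51 called higher and 24 lower. Without Ctrl 1 the medians of the members and of all genes tested were -0.06 and 0.01. At an unadjusted p under 0.05, 6 members were higher (11.8% of all genes were) and 5 lower (8.17% of all genes). DESeq2 and limma-voom also called 3 members higher and 0 lower. Without Ctrl 1, 4 members were higher and 1 lower, and without Ctrl 3, 5 and 1. Calls over all genes rose as well, from 219 higher and 93 lower. They were 605 and 291 of 11901 genes without Ctrl 1, and 433 and 211 of 12022 without Ctrl 3. Without Ctrl 2, or without any 1 of the Rb2 libraries, no member passed, the smallest adjusted p of Psma4 then being 0.0716 by edgeR.

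**Figure D1:**
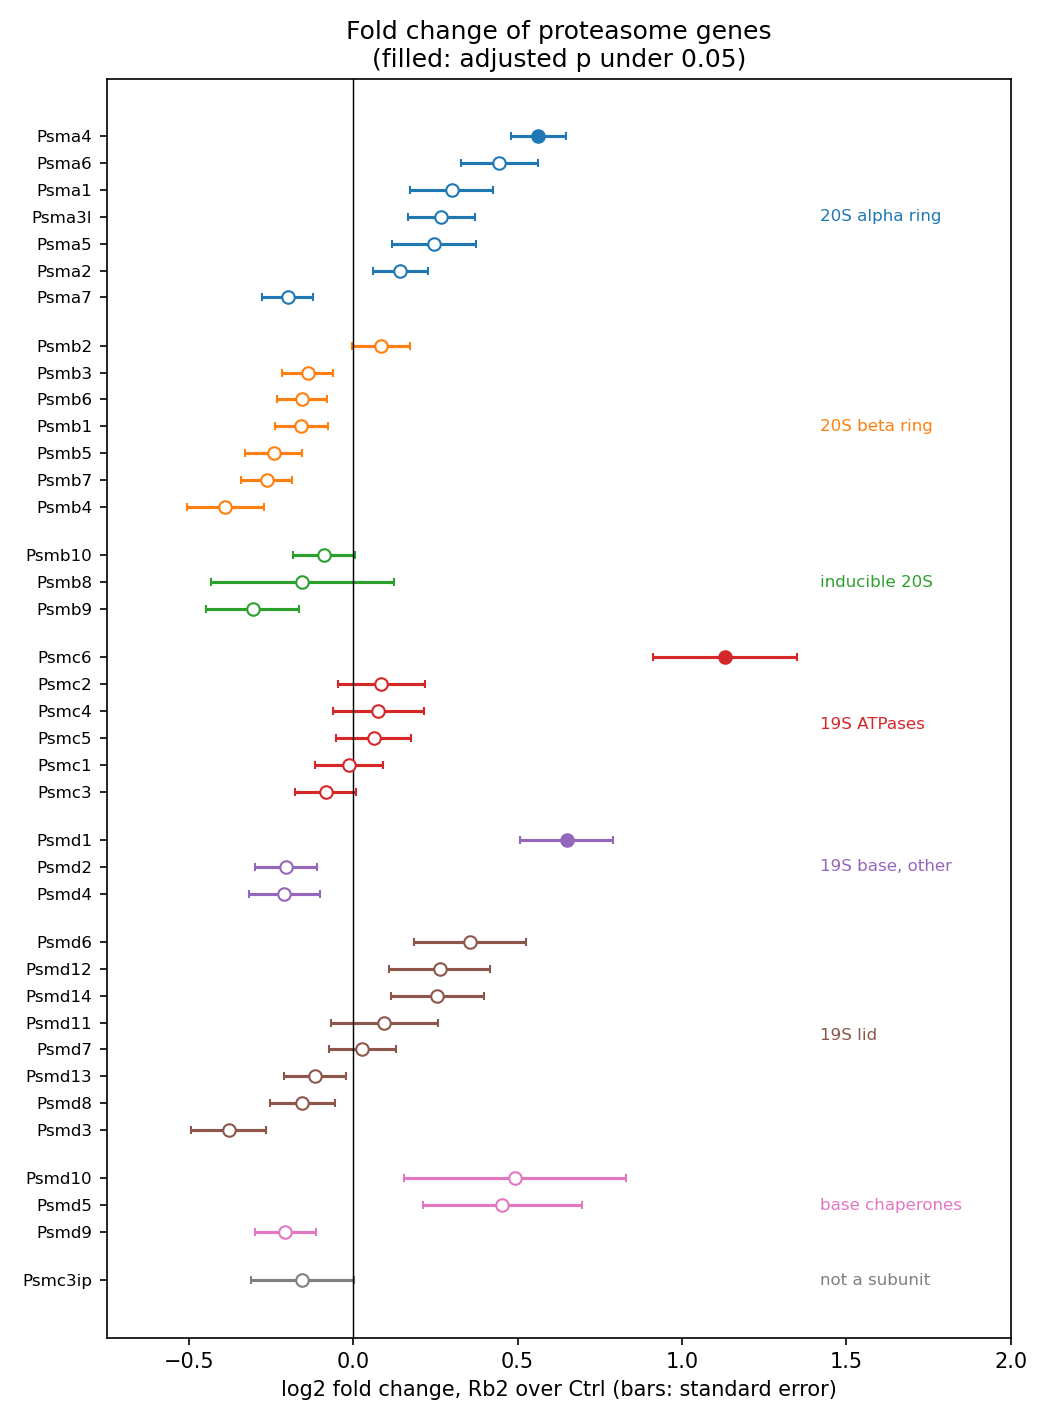
Log2 fold change of Rb2 over Ctrl (horizontal axis) with its standard error for the 38 proteasome genes tested, grouped by role; filled points passed an adjusted p under 0.05. Psma4, Psmc6 and Psmd1 are the filled points, 6 of 7 alpha-ring genes lie above 0, and 6 of 7 constitutive beta-ring genes lie below 0.

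The promoters of the 3 called genes are shown because they are the members whose difference passed the test, and that of Psmb7, chosen after its values were seen, because this catalytic gene was the beta-ring member with the smallest p. Each run is the 250 bases before the annotated start, from RefSeq on assembly GRCr8, written along the gene's strand. Capitals mark matches on either strand to CCAAT, the box bound by NF-Y, to TGACNNNGC or TGAGNNNGC, the antioxidant response element bound by Nfe2l1, Nfe2l2 and small Maf proteins, and to GGGCGG, the GC box bound by Sp1. The windows are chr8:64236270-64236519 (plus strand) for Psma4, chr15:21022064-21022313 (plus) for Psmc6, chr9:94157721-94157970 (plus) for Psmd1 and chr3:42827471-42827720 (minus) for Psmb7.
Psma4: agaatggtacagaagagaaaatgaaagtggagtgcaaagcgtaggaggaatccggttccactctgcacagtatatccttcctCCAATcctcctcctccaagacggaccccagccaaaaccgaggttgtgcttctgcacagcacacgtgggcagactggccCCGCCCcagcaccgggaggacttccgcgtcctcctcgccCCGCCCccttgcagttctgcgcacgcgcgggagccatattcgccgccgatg
Psmc6: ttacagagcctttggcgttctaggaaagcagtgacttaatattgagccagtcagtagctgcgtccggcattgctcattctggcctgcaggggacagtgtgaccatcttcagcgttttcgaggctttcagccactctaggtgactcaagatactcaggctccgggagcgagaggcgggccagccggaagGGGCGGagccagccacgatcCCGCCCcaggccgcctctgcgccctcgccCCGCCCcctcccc
Psmd1: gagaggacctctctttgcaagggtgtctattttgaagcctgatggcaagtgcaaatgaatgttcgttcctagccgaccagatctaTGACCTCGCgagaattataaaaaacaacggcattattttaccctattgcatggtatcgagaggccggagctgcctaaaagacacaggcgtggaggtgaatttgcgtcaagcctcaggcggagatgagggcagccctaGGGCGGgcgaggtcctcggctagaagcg
Psmb7: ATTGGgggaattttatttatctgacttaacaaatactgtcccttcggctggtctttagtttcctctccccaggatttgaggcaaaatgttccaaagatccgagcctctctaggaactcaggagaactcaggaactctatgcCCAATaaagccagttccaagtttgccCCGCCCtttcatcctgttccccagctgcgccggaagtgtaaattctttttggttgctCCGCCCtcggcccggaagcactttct
GGGCGG was found in all 4 windows, CCAAT in those of Psma4 and Psmb7, and TGACNNNGC in that of Psmd1, 165 to 157 bases before the start. Promoters were listed for 35 members, Psma7, Psmd6, Psmd12 and Psmd14 being the others. The GC box GGGCGG occurred in 68.6% of these 35 and in 32.4% of all 27457 listed promoters of the same length, CCAAT in 51.4% and 34.3%, TGACNNNGC in 17.1% and 10.2%, and TGAGNNNGC in 22.9% and 14.2%. The motifs were counted separately, so a base may belong to more than 1 match. The median GC content was 55.2% in the members' windows and 52.0% in all windows.

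In the alpha ring, Psma4 was higher in Rb2 and Psma7 was the only gene of the ring with a fold change below 0. Psma4, the alpha3 subunit, was at 195, 207 and 203 CPM in Ctrl 1 to 3 and at 294, 314 and 286 CPM in Rb2 1 to 3. All 3 Rb2 libraries lay above all 3 Ctrl libraries by far more than the spread within either group. The means were 202 ± 5.65 and 298 ± 14.4 CPM (SD, n = 3), a log2 fold change of 0.56 (SE 0.08), with an adjusted p of 0.0194 by edgeR. Without Ctrl 1 it was 0.56 (adjusted p 0.000410), and with the length correction 0.54 (0.0199).

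The alpha1 gene Psma6 was at 129, 141 and 169 CPM in Ctrl and 195, 215 and 188 CPM in Rb2. Its groups did not overlap, but its log2 fold change of 0.44 did not pass the test (edgeR, adjusted p 0.0746). Without Ctrl 1 it did, at 0.38 (adjusted p 0.0250), and without Ctrl 3 at 0.58 (0.0210). Psma3l, the row that RefSeq lists under Psma3, the alpha7 gene, was at 257, 283 and 322 CPM in Ctrl and 353, 360 and 324 in Rb2. Here the highest Ctrl and the lowest Rb2 library nearly met, and the adjusted p was 0.184 by edgeR for a log2 fold change of 0.27; without Ctrl 3 it passed, at 0.37 (0.0484). Psma1, Psma2 and Psma5 had log2 fold changes of 0.30, 0.14 and 0.25, none past the test (adjusted p 0.230, 0.371 and 0.312 by edgeR), also with groups that did not overlap. Without Ctrl 1 these were 0.18, 0.12 and 0.13. Psma7, the alpha4 gene, was at 874, 865 and 793 CPM in Ctrl and 752, 736 and 718 in Rb2. Its 3 Rb2 libraries lay below its 3 Ctrl libraries (log2 fold change -0.20, adjusted p 0.191 by edgeR). The 7 genes had a median log2 fold change of 0.27, with 1 higher, 0 lower and 6 not past the test. Without Ctrl 1 the median was 0.18, and 6 of the 7 were again above 0. Of the 38 members 11 had all Rb2 libraries above all Ctrl libraries, as did 15.0% of all genes tested and 18.3% of known genes. Another 11 had them all below, as did 12.2% of all genes tested and 10.4% of known genes. Among known genes with at least 50 CPM these shares were 13.9% above and 20.4% below. Of the 11 members above, 6 were alpha-ring genes.

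No beta-ring gene passed the test, and 6 of the 7 constitutive ones had a log2 fold change below 0. At an unadjusted p under 0.05, 3 were lower (Psmb4, Psmb5 and Psmb7), beside the 8.17% of all genes. Psmb7, which carries the trypsin-like site, was at 425, 458 and 458 CPM in Ctrl and 378, 369 and 370 in Rb2. The Rb2 libraries were close together and all below Ctrl, with means of 447 ± 19.3 and 372 ± 4.93 CPM (SD, n = 3) and a log2 fold change of -0.26 (SE 0.08), but the adjusted p was 0.104 by edgeR. Without Ctrl 1 it passed, at -0.28 (adjusted p 0.0103). Psmb5, which carries the chymotrypsin-like site, was at 692, 664 and 606 CPM in Ctrl and 591, 528 and 540 in Rb2. These groups were separated by a small gap (log2 fold change -0.24, adjusted p 0.160 by edgeR). Psmb6, which carries the caspase-like site, was at 637, 691 and 662 CPM in Ctrl and 610, 579 and 598 in Rb2. The difference was smaller still, at -0.16 on the log2 scale (adjusted p 0.290 by edgeR). Psmb4, the structural beta7 subunit, was at 124, 114 and 96.97 CPM in Ctrl and 91.5, 82.0 and 82.6 in Rb2. This was the lowest log2 fold change of all members, -0.39, and its adjusted p was 0.107 by edgeR. It did not pass without Ctrl 1, at -0.29 (0.0740), and passed without Ctrl 3, at -0.47 (0.0439). In Ctrl 1, 217 of its counts lay on a new model of 119 bases, and its known transcript had a log2 fold change of -0.29. Psmb1 and Psmb3 had log2 fold changes of -0.16 and -0.14, neither past the test, and Psmb2 was the 1 gene of this ring above 0, at 0.08 (adjusted p 0.632 by edgeR). Of the 7 constitutive beta-ring genes, 6 had all Rb2 libraries below all Ctrl libraries, beside 12.2% of all genes tested and 20.4% of the 2036 known genes with at least 50 CPM. The median log2 fold change of the 7 was -0.16, and -0.18 without Ctrl 1.

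**Figure D2:**
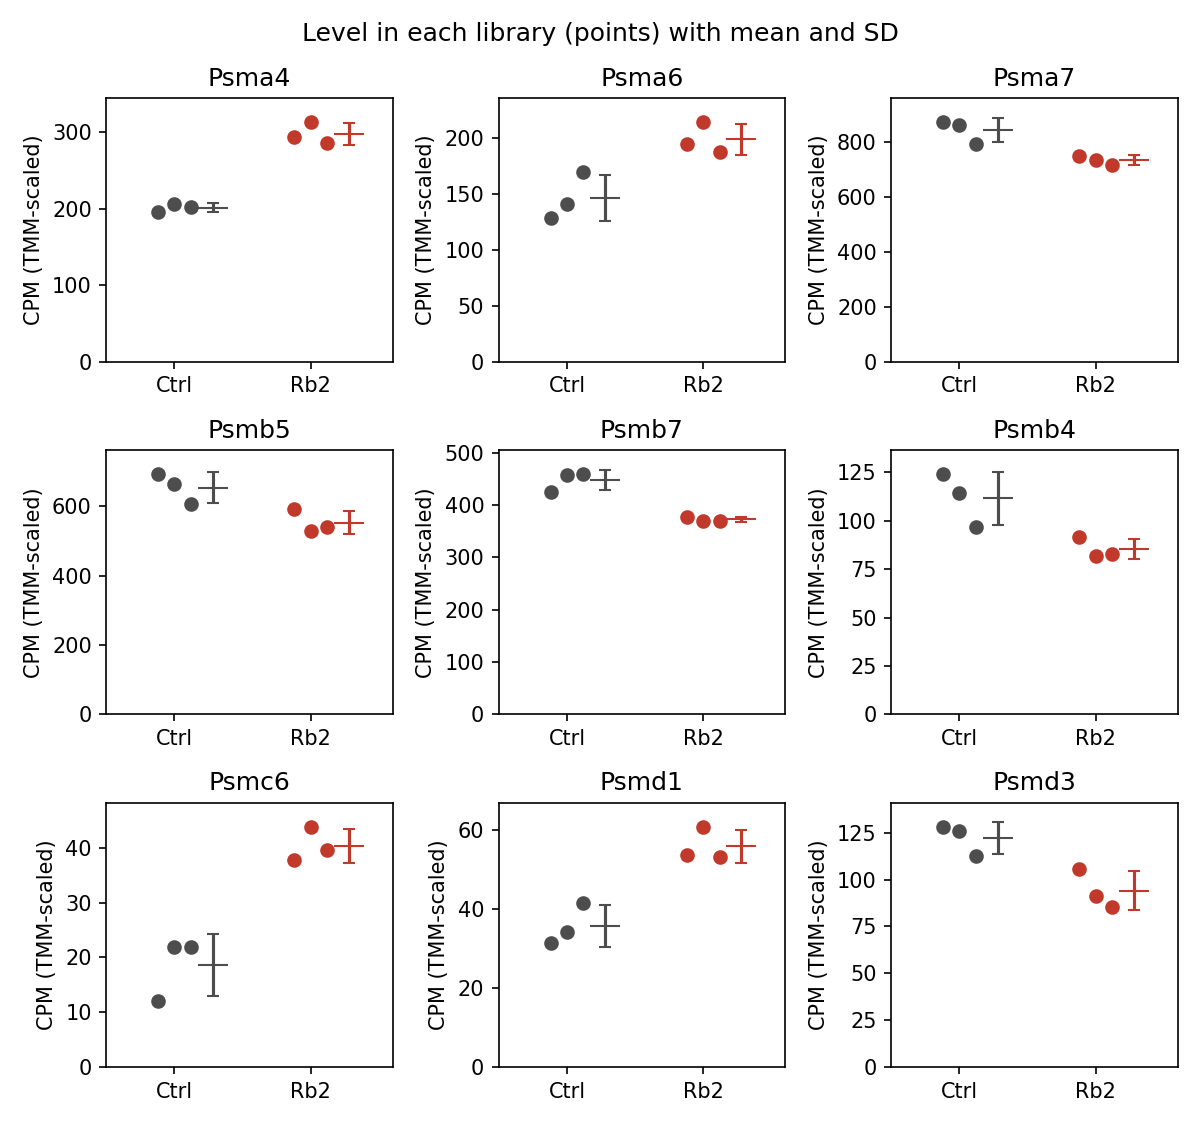
Level in CPM (vertical axis, from 0, scaled by the trimmed mean of M values) in each library for 9 proteasome genes, with the mean and SD of each group beside the points. Rb2 points lie above all Ctrl points for Psma4, Psma6, Psmc6 and Psmd1 and below them for Psma7, Psmb4, Psmb5, Psmb7 and Psmd3.

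The catalytic subunits that interferon induces, which replace the constitutive ones in the immunoproteasome, were lower per kilobase than those they replace: Psmb8, Psmb9 and Psmb10 were at 5.91, 37.3 and 74.4 CPM per kb in Ctrl, against 261 for Psmb7, the lowest of the constitutive 3. Psmb8 was at 9.95, 8.68 and 5.59 CPM in Ctrl and 5.34, 8.84 and 7.73 in Rb2, with overlapping groups. Psmb9 was at 31.9, 33.6 and 37.2 CPM in Ctrl and 29.4, 24.6 and 29.1 in Rb2, where all Rb2 libraries were lower (log2 fold change -0.31, adjusted p 0.265 by edgeR). Psmb10 was at 139, 149 and 131 CPM in Ctrl and 130, 127 and 136 in Rb2, and its groups overlapped. None of the 3 passed the test, and without Ctrl 1 Psmb8 was above 0, at 0.06. Within each library the counts of these 3 genes were 0.103, 0.105 and 0.101 times those of Psmb5, Psmb6 and Psmb7 together in Ctrl and 0.105, 0.109 and 0.114 times in Rb2, so the groups overlapped in this ratio too.

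A ratio of counts within a library does not depend on how libraries are scaled, and it shows how the alpha and beta rings stood to each other. The counts of the 7 alpha-ring genes were 0.614, 0.642 and 0.683 times those of the 7 constitutive beta-ring genes in Ctrl and 0.788, 0.839 and 0.778 times in Rb2. The lowest Rb2 ratio was above the highest Ctrl ratio, the means being 0.646 ± 0.035 and 0.802 ± 0.033 (SD, n = 3). Without Psma4 the means were 0.589 and 0.705, and without Psma7, the most abundant alpha-ring gene, 0.404 and 0.564, and the groups stayed apart both times. Psma4 alone went from 0.0986 ± 0.0033 of the other 6 alpha-ring genes in Ctrl to 0.137 ± 0.0051 in Rb2 (SD, n = 3). These ratios were formed with the members' differences known and are given as a description. Ctrl 1 had the lowest alpha-to-beta ratio of the 6 libraries. The mean gene length per count differs between the groups in the same direction, and its part in this ratio was not tested. In the fit with the length correction, the alpha-ring median log2 fold change was 0.28, with 6 of 7 genes above 0. That of the constitutive beta ring was -0.16, with 6 of 7 below 0.

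**Figure D3:**
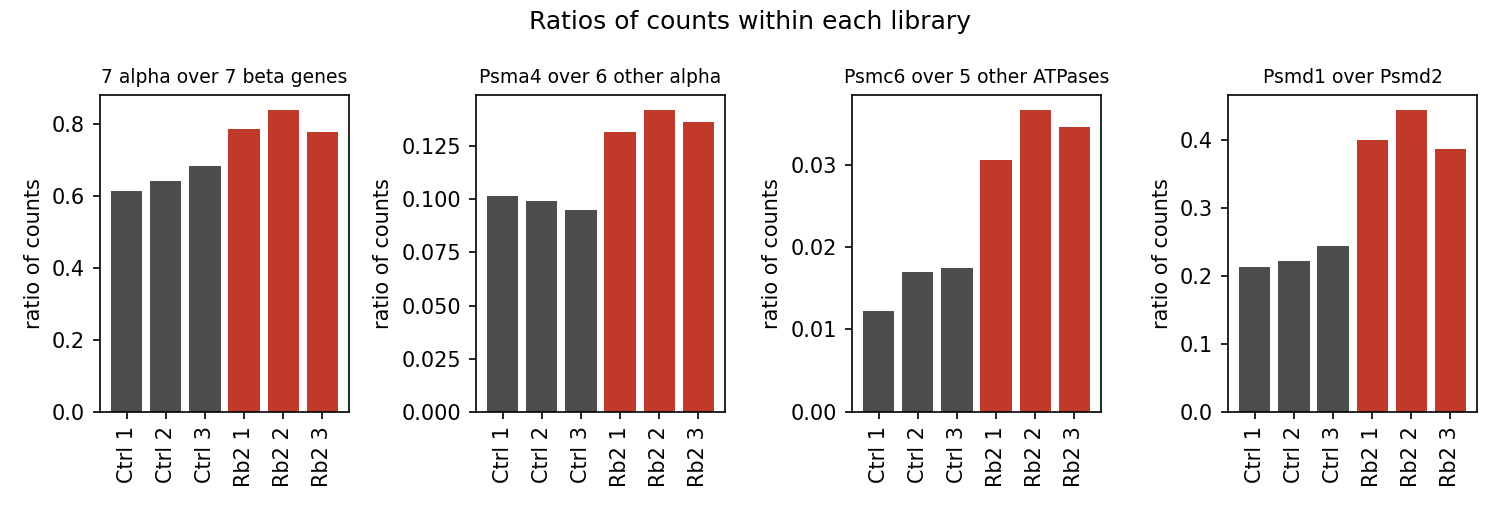
Ratio of counts within each of the 6 libraries (bars from 0) for the 7 alpha-ring over the 7 constitutive beta-ring genes, Psma4 over the other alpha-ring genes, Psmc6 over the other 5 ATPase genes and Psmd1 over Psmd2. In each panel all 3 Rb2 bars are taller than all 3 Ctrl bars. The genes of each ratio were chosen with their differences known, so the panels are a description only. The ratio of inducible over constitutive catalytic genes, in which the groups overlapped, is not drawn.

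Among the 6 ATPase genes of the 19S base, Psmc6 alone passed the test. It was at 12.1, 21.9 and 21.8 CPM in Ctrl and 37.7, 43.8 and 39.6 CPM in Rb2, from 100, 121 and 125 counts and 212, 253 and 215 counts. Ctrl 1 was the lowest of the Ctrl libraries, and the groups were far apart. The means were 18.6 ± 5.61 and 40.4 ± 3.14 CPM (SD, n = 3), a log2 fold change of 1.13 (SE 0.22), with an adjusted p of 0.0369 by edgeR. This was the largest difference of the 38 members. Without Ctrl 1 it was 0.90 (adjusted p 0.00114), and with the length correction 1.03 (0.0451). The other 5 ATPase genes had log2 fold changes from -0.08 (Psmc3) to 0.09 (Psmc2), and without Ctrl 1 all 5 were below 0, from -0.13 (Psmc3) to -0.03 (Psmc5). With the length correction, 3 of the 6 ATPase genes were above 0 and 3 below. Psmc3, a regulatory ATPase, was at 282, 326 and 316 CPM in Ctrl and 300, 299 and 272 in Rb2, with overlapping groups (adjusted p 0.649 by edgeR). Psmc1, Psmc2, Psmc4 and Psmc5 overlapped as well, and Ctrl 1 was the lowest library for each of these 4. Psmc6 made up 0.0122, 0.017 and 0.0175 of the counts of the other 5 ATPase genes in Ctrl and 0.0305, 0.0366 and 0.0346 in Rb2. This ratio too was formed with the genes' differences known and is a description.

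Psmc3ip matches the naming rule but encodes a partner of meiotic recombinases, not a proteasome subunit. It was at 17.0, 18.98 and 19.4 CPM in Ctrl and 16.9, 14.9 and 17.8 in Rb2, with overlapping groups (log2 fold change -0.15, adjusted p 0.623 by edgeR).

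Of the 3 other base genes, Psmd1, which encodes the large scaffold Rpn2 that holds ubiquitin receptors, was higher in Rb2. It was at 31.4, 34.2 and 41.6 CPM in Ctrl and 53.7, 60.8 and 53.2 CPM in Rb2, with no overlap. The means were 35.7 ± 5.26 and 55.9 ± 4.27 CPM (SD, n = 3), a log2 fold change of 0.65 (SE 0.14), with an adjusted p of 0.0474 by edgeR. The call was near the threshold: without Ctrl 1 it was kept (0.58, adjusted p 0.0110), and with the length correction it was lost (0.52, adjusted p 0.0703). Its structural relative Psmd2, which encodes Rpn1, differed by -0.20 on the log2 scale (adjusted p 0.261 by edgeR), with all Rb2 libraries below all Ctrl libraries. The count of Psmd1 over that of Psmd2 was 0.213, 0.223 and 0.244 in Ctrl and 0.400, 0.444 and 0.387 in Rb2. As the differences of both genes were known when this ratio was formed, it is a description. The ubiquitin receptor gene Psmd4 was at 194, 183 and 182 CPM in Ctrl and 182, 159 and 142 in Rb2. The groups met at 182 CPM, and the log2 fold change of -0.21 did not pass the test (edgeR, adjusted p 0.312).

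None of the 8 lid genes passed the test, 5 lying above 0 and 3 below, and at an unadjusted p under 0.05 only Psmd3 was lower. Psmd3, a lid scaffold subunit, was at 128, 126 and 113 CPM in Ctrl and 106, 91.5 and 85.2 in Rb2. Its groups did not overlap (log2 fold change -0.38, adjusted p 0.105 by edgeR). Psmd14, the deubiquitinase that cuts ubiquitin chains from substrates, was at 85.3, 115 and 127 CPM in Ctrl and 133, 130 and 128 in Rb2. Ctrl 1 was far below the other Ctrl libraries, and Ctrl 3 was just below the lowest Rb2 library (log2 fold change 0.26, adjusted p 0.346 by edgeR). Psmd6 and Psmd12 had log2 fold changes of 0.36 and 0.26, Psmd11 and Psmd7 of 0.09 and 0.03, and Psmd13 and Psmd8 of -0.12 and -0.15. These values rest in part on Ctrl 1: without it 3 lid genes were above 0 and 5 below, Psmd6, Psmd12 and Psmd14 being at 0.18, 0.11 and 0.12 and Psmd11 and Psmd7 at -0.07 and -0.04. The lid median went from 0.06 to -0.05, and that of all 14 Psmd genes likewise, from 8 above 0 to 6. With the length correction and Ctrl 1 kept, 3 lid genes were also above 0 and 5 below, with a median of -0.04. Of the 14 Psmd genes 6 were then above 0 and 8 below. Psmd5, Psmd9 and Psmd10 encode chaperones that assemble the base and leave it. Psmd9 was at 160, 153 and 145 CPM in Ctrl and 134, 126 and 137 in Rb2, all Rb2 libraries lying lower (log2 fold change -0.21, adjusted p 0.251 by edgeR). Psmd5 had a log2 fold change of 0.45 and Psmd10, at 1.58 to 3.99 CPM, one of 0.49, neither past the test. Without Ctrl 1 they were 0.20 and 0.21.

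The members differed widely in level within a complex that holds its subunits in equal numbers. Per kilobase of deposited gene length, the ATPase genes in Ctrl ranged from 206.6 CPM per kb for Psmc5 to 7.82 for Psmc6, a 26.4-fold range, which was 12.7-fold in Rb2. Division by length assumes that longer RNAs give more counts, which holds for short but not for full-length reads, and which of these were counted is not settled by the sources used here. In CPM not divided by length the same genes spanned 16.5-fold in Ctrl, from Psmc3 to Psmc6, and 7.19-fold in Rb2. The lowest of the other 5 ATPase genes was Psmc4, at 89.8 CPM per kb in Ctrl. Psmd1 was the lowest of the 3 other base genes, at 11.2 CPM per kb in Ctrl and 17.5 in Rb2, against 121 and 105 for Psmd4. Both genes were also the lowest of their groups in CPM not divided by length. In the alpha ring the range in Ctrl was from 89.5 CPM per kb (Psma3l) to 904 (Psma7), and Psma4, at 155, was the fifth of 7. In Rb2 Psma4 was the fourth, at 229. In CPM not divided by length it was the fifth in both groups, at 202 in Ctrl and 298 in Rb2. The lowest gene of the ring was then Psma6 in Ctrl and Psma5 in Rb2, not Psma3l. In the constitutive beta ring the range per kb in Ctrl was from 122 (Psmb4) to 789 (Psmb6), and in the lid from 22.6 (Psmd11) to 194 (Psmd8). All 39 members together made up 9049 ± 460 CPM in Ctrl and 8880 ± 213 in Rb2 (SD, n = 3), which overlapped. In bulk RNA, fewer cells that express a gene and less RNA of it per cell cannot be told apart.

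**Figure D4:**
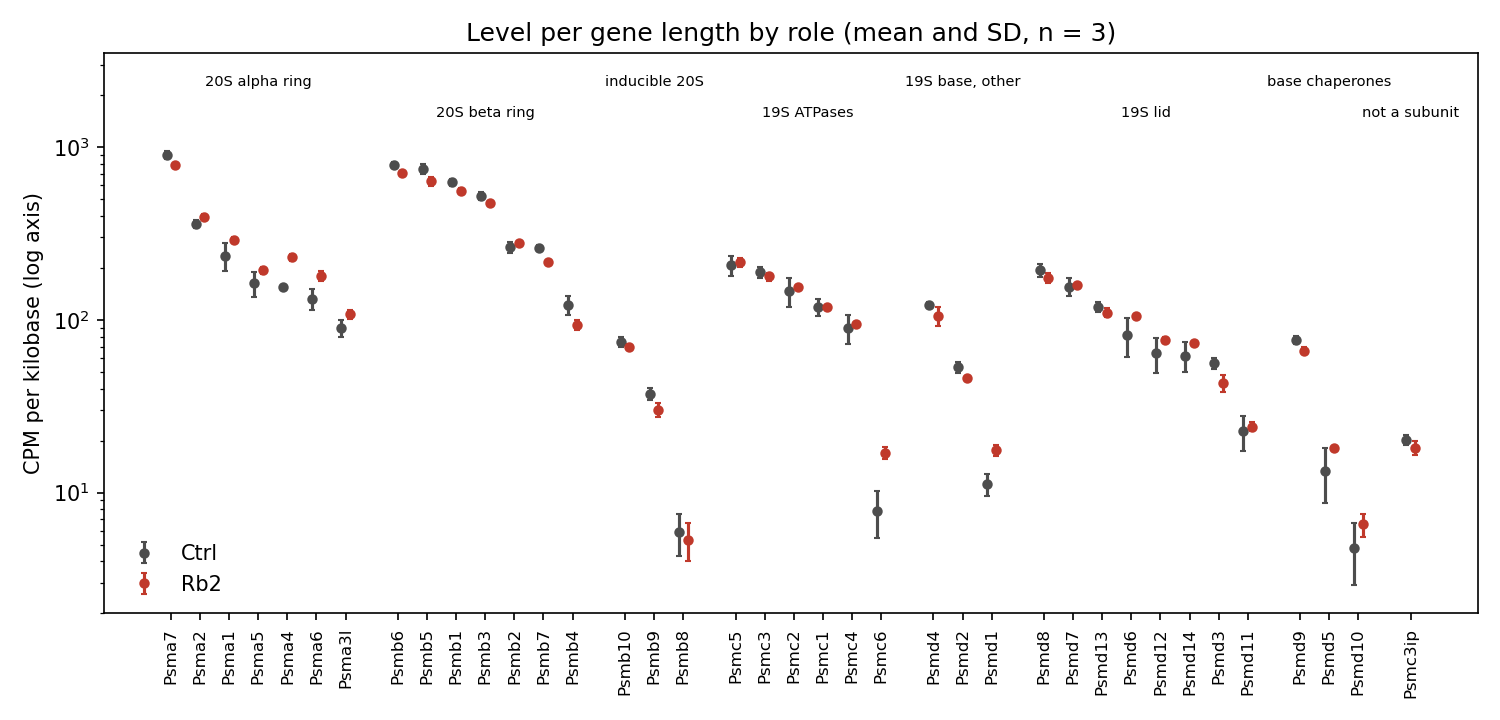
Level in CPM per kilobase of gene length (log axis) of 38 proteasome genes by role, as mean and SD of 3 Ctrl and 3 Rb2 libraries. Psmc6 and Psmd1 lie lowest of the ATPase genes and of the other base genes, at 7.82 and 11.2 in Ctrl and 17.0 and 17.5 in Rb2.

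Across the 38 members the log2 fold change had a Spearman correlation of 0.19 with gene length and -0.28 with the Ctrl level; over all 8426 known genes tested these were 0.11 and -0.26. The values share libraries and depth and are given as a description. Copies (pseudogenes or like genes) were sought in RefSeq only by symbols that extend the member's own. Copies under other names would be missed. By this rule there were 39 copies of 15 members, 10 of Psmb3, 5 of Psma6, 2 of Psmc6, 1 of Psmd1 and 0 of Psma4. Reads of any member with a copy could have been shared with it in the authors' counting. The annotation places Styx and Rps10l6 over the locus of Psmc6 and Htr2b over that of Psmd1. No counts of Rps10l6 were analysed here, so reads shared between it and Psmc6 were not assessed. Styx had 0 counts in 5 libraries and 1 in Rb2 3, and Htr2b had 0 in 5 and 2 in Rb2 1.

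At the level of transcripts, the members had 113 rows, 42 known and 71 new models, of which 62 passed the filter. None was called by edgeR, and none of the 16679 transcripts tested in all was. At an unadjusted p under 0.05 there were 17, 6 higher and 11 lower, beside 13.8% of all transcripts. DESeq2 called 3 member transcripts. Its calls over all transcripts were not counted, so no share can be set beside these 3. Those 3 were the ones of smallest p: Psma4-201 (log2 fold change 0.54, adjusted p 0.0842 by edgeR), Psmc6-201 (1.12, 0.168) and Psmd1-201 (0.65, 0.184). In each library Psma4-201 held 95.4% to 99.6% of the gene's counts, Psmc6-201 held all of them and Psmd1-201 held 94.2% to 99.2%. The share of transcripts within a gene could be tested in 15 members. None was called (edgeR's diffSpliceDGE, by the Simes p or by its F test), and 0 had an unadjusted p under 0.05, beside 3.36% of the 3361 genes tested. The smallest p belonged to Psmb4 (unadjusted p 0.0653 by edgeR). Its known transcript held 78.7%, 91.0% and 94.4% of its counts in Ctrl and 94.2%, 94.9% and 94.0% in Rb2, Ctrl 1 being apart. Psmd2 came next (unadjusted p 0.114 by edgeR), with 97.4%, 93.1% and 91.6% of counts on Psmd2-201 in Ctrl and 91.9%, 85.7% and 85.7% in Rb2.

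Of the other genes of the pathway, 49 of 51 could be tested. By edgeR 1 was called, lower in Rb2, beside 0.805% of all genes called lower and 2.70% called in either direction. Mafk, a small Maf protein that pairs with Nfe2l1 and Nfe2l2 at the antioxidant response element, was at 124, 88.2 and 70.4 CPM in Ctrl and 36.5, 46.1 and 49.3 in Rb2. All Rb2 libraries lay below all Ctrl libraries, whose own spread was wide (log2 fold change -1.10, adjusted p 0.0369 by edgeR). Without Ctrl 1 it was -0.83 (0.00681), and it did not pass without Ctrl 2 or without any 1 of the Rb2 libraries (0.122 to 0.188). The Nfe2l1 gene itself was at 106 ± 10.04 CPM in Ctrl and 97.5 ± 3.18 in Rb2 (SD, n = 3; adjusted p 0.570 by edgeR), and the 12 genes of transcriptional control had 0 higher and 1 lower.

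No gene was called in any of the remaining lists, and in all but 1 of them the gene of smallest p is named here. Of the 5 proteasome genes with other symbols it was Ecpas, which encodes an adaptor of the proteasome, at 4.73, 2.89 and 3.32 CPM in Ctrl and 6.94, 6.07 and 5.15 in Rb2 (log2 fold change 0.70, adjusted p 0.174 by edgeR). Of the 5 chaperones that assemble the 20S core it was Psmg2, at 23.9, 31.6 and 29.0 CPM in Ctrl and 38.4, 34.3 and 36.6 in Rb2 (log2 fold change 0.38, adjusted p 0.198 by edgeR). Of the 5 genes that encode activators or the inhibitor of the core it was Psme1, a subunit of the 11S activator. Its level was 253, 269.9 and 245 CPM in Ctrl and 229, 220.3 and 205 in Rb2 (log2 fold change -0.23, adjusted p 0.187 by edgeR). Of the ubiquitin and E1 genes 4 were tested. Of the 12 deubiquitinases and shuttle receptors it was Usp14, the deubiquitinase that binds Psmd2's product, at 0.53 (0.0804), with 23.1, 29.5 and 28.3 CPM in Ctrl and 36.8, 40.7 and 38.6 in Rb2. Of the 7 genes of the p97 segregase tested it was Ubxn1, at 337, 282 and 264 CPM in Ctrl and 238, 232 and 220.4 in Rb2 (-0.35, 0.105). The median log2 fold change of the 49 genes was -0.07, with 20 above 0 and 29 below, and 6 were higher and 9 lower at an unadjusted p under 0.05, beside 11.8% and 8.17% of all genes.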

How the data were processed

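RNA-seq counts per gene and per transcript were used as the authors deposited them, as whole-number counts, together with the deposited CPM, which equal count over library total to within 4.9e-11. The submitters' processing notes name HISAT2, DESeq2 and the mouse build mm10, whereas the gene identifiers in the files are rat Ensembl ones; which genome the reads were aligned to is not given in the sources used here. New gene models carry names that begin with ONT, while the labels describe an Illumina library kit. A further 18 per-sample columns in each table matched no sample and were not used.

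The members and all lists were chosen with earlier results of these data known. Rb2 and Ctrl were compared with edgeR 4.0.16 in R 4.3.3 (TMM scaling, filterByExpr, robust quasi-likelihood fit, group as the only term), with Benjamini-Hochberg adjustment over all genes tested and a threshold of 0.05. CPM in the text are TMM-scaled. Transcripts were tested in the same way and transcript usage with diffSpliceDGE. The scripts were tested on simulated counts. DESeq2 1.42.0, limma 3.58.1, other scalings and filters, a replicate block, a gene length offset (loess, span 0.5), other thresholds and leaving out each sample were the alternatives.

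Values in every sample are given for called members, the 3 of smallest p in each symbol class, the catalytic and inducible beta genes, Psmd4 and Psmd14; of other lists, called genes or the 1 of smallest p, except 1 gene that is not reported here. Promoter sequences and copies come from RefSeq (GRCr8), where 38 members matched by symbol and 1, Psma3l, by an older symbol; no coordinate of the counts was used. Libraries of 1 group differed by more than sampling noise in every pair (chi-square per degree of freedom at least 1.71).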

Additional observations from a re-analysis of the deposited data

How the results depend on the processing

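Psma4, Psmc6 and Psmd1 kept their direction under all 19 other settings; Psma4 and Psmc6 passed an adjusted p under 0.05 in 14 of them each and Psmd1 in 8. The number of members higher in Rb2 was 3, and 0 with the replicate block and at an adjusted p under 0.01. It ranged from 0 to 5 when single libraries were left out: 4 without Ctrl 1, 5 without Ctrl 3 (Psma3l and Psma6 added), and 0 without Ctrl 2 or any 1 of the Rb2 libraries, where the calls over all genes also dropped, from 219 higher and 93 lower to 0 to 25 higher and 3 to 14 lower. Over all genes, calls rose to 605 higher and 291 lower without Ctrl 1 and to 433 and 211 without Ctrl 3. The number of members lower ranged from 0 to 1 (Psmb7 without Ctrl 1, Psmb4 without Ctrl 3) and was 1 (Psmb7) with the length offset. That offset used a loess of degree 2; degree 1, run first, gave 0 lower. The degree was chosen after seeing the data, and both gave 2 higher (Psma4 and Psmc6). Other settings gave 2 to 4 higher and 0 lower.

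The deviations of same-numbered samples had correlations of -0.067, -0.061 and -0.0067, and those of other pairs ran from -0.118 to 0.156. Such values cannot show whether same-numbered samples were grown or processed as pairs. The replicate block left 12 genes higher and 21 lower. With library size alone the members' median was 0.118, and with limma on log2 of deposited CPM plus 1 or 0.1 it was 0.125 or 0.126; the median of all genes then moved from -0.02 to 0.096, 0.095 and 0.106. Relative to that shift the Psma median stayed above and the Psmb median below. DESeq2 called 3 member transcripts where edgeR called 0, and the calls of DESeq2 over all transcripts were not counted. Usage calls were 0 throughout. Mafk was called in 13 of 19 settings. The causes of these shifts were not tested. Psma8 and Psmd10 are limited by depth.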
